A study of Mus musculus with 15 samples.

Results

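Phenylarsine oxide (PAO), a trivalent organic arsenical, was compared with its ethanol vehicle on mouse skin by RNA sequencing. The comparison used 6 of the study's 15 libraries, 3 labelled PAO and 3 labelled Control, and took in every gene of the count table. All libraries came from whole skin of male SKH-1 (hairless) mice, taken at the 24 h time point, and no age was given in the labels. The PAO mice were anesthetized and received 100 µg of PAO in ethanol, equal to 25 µg/cm2, as 30 µL spread over a square of 2 cm by 2 cm on the back. The Control mice received ethanol alone in the same way, so ethanol was shared by both groups. A further group used at the end received 2-chloroethyl ethyl sulfide (CEES), an analog of sulfur mustard, at 2 mg per mouse or 500 µg/cm2. The other 2 groups received PAO or CEES and, 15 min later on the same skin, 20 mg/kg of the HSP90 inhibitor SNX-5422, and they enter only the shared estimate of spread. The labels do not say whether each library is a separate mouse, so the p-values measure the spread between these libraries, which may be technical in part.

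Trivalent arsenicals bind pairs of neighbouring thiols, and phenylarsine oxide is used in the laboratory for that property. Targets known for this class include the lipoic acid of pyruvate dehydrogenase, the selenocysteine and cysteine of thioredoxin reductase, and zinc-binding cysteines of many proteins. Cells answer thiol loss through the transcription factors NRF2 (antioxidant enzymes), HSF1 (chaperones), MTF1 (metallothioneins) and ATF4 (amino acid and redox supply). Skin adds an outer epidermis whose keratinocytes leave the basal layer, switch from keratins 5 and 14 to keratins 1 and 10, and end as a cornified barrier bound by lipids.

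Counts on genes per library ranged from 18092110 to 21340178 in PAO and from 16838212 to 28887367 in Control libraries. Values below are CPM, the count of a gene scaled to a common library size with TMM factors, listed in the order of replicates 1, 2 and 3. The basal keratins Krt5 and Krt14 lay between 2733 and 3494 CPM in the 6 libraries, as skin should show. The first principal component of the 6 libraries held 51.4% of the variance, with PAO libraries at 57.2, 34.5 and 51.0 and Control libraries at -59.0, -35.2 and -48.4. PAO 2 was the lowest of the 3 PAO libraries in 66.6% of raised genes, and Control 2 was the lowest of its group in 62.4% of lowered genes, so both lay nearest to the other group. Mitochondrial ribosomal RNA took 9.69, 17.7 and 13.0% of gene counts in PAO libraries, against 6.63, 8.23 and 7.45% in Control libraries. Genes of skeletal muscle, which lies under this skin, took 9.34 ± 0.32% of counts in PAO and 9.20 ± 2.49% in Control libraries (SD, n = 3 each). Markers of the pancreas, no part of skin, took 0.142 ± 0.0301% in PAO and 0.188 ± 0.140% in Control libraries, so such counts were present in both groups.

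PAO skin differed from Control skin at 4607 of 22529 genes tested, 20.4%, by edgeR's quasi-likelihood test at a Benjamini-Hochberg adjusted p under 0.05. Of these, 2673 were raised (11.9% of genes tested) and 1934 lowered (8.58%). The CPM of the groups did not overlap at 8100 genes, 36.0%. Counts of members from here on are to be read against those shares, and medians of lists against the median of all genes, which was -0.0040 on the log2 scale. Scaling by total counts moved the median of all genes to -0.21 and gave 1434 raised and 4342 lowered genes, and upper-quartile scaling gave 2183 and 2497. Raised genes passed 2-fold at 859 (3.81%) and lowered genes at 743 (3.30%). Changes of more than 8-fold were seen at 85 raised and 38 lowered genes. The share called grew with expression, 6.50% under 1 CPM and 35.5% at 100 CPM or more. It was 25.4% among protein-coding genes, with 2468 raised and 1530 lowered, and 10.3% among long non-coding genes, with 144 raised and 326 lowered. Log2 fold changes are given as the value ± a standard error, in brackets where the text gives the CPM of both groups. That error was derived from the test, as the absolute log2 fold change over the square root of the quasi-likelihood F statistic. A gene is said to rise, fall or change only if it was called. Leaving out PAO 1 gave 2953 called genes and leaving out PAO 3 gave 2998. With the share of mitochondrial ribosomal RNA in the model 3181 genes were called, 2647 of them also called without it and in the same direction. That term ended the calls of 26 genes named in the text, among them Cd207, Adipoq, Scd1, Ccl22, Btc, Il18, Cd55, Ptgs1, Slc39a8 and Mt2 (adjusted p up to 0.595), and the part of that RNA in the changes was not tested.

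**Figure D1:**
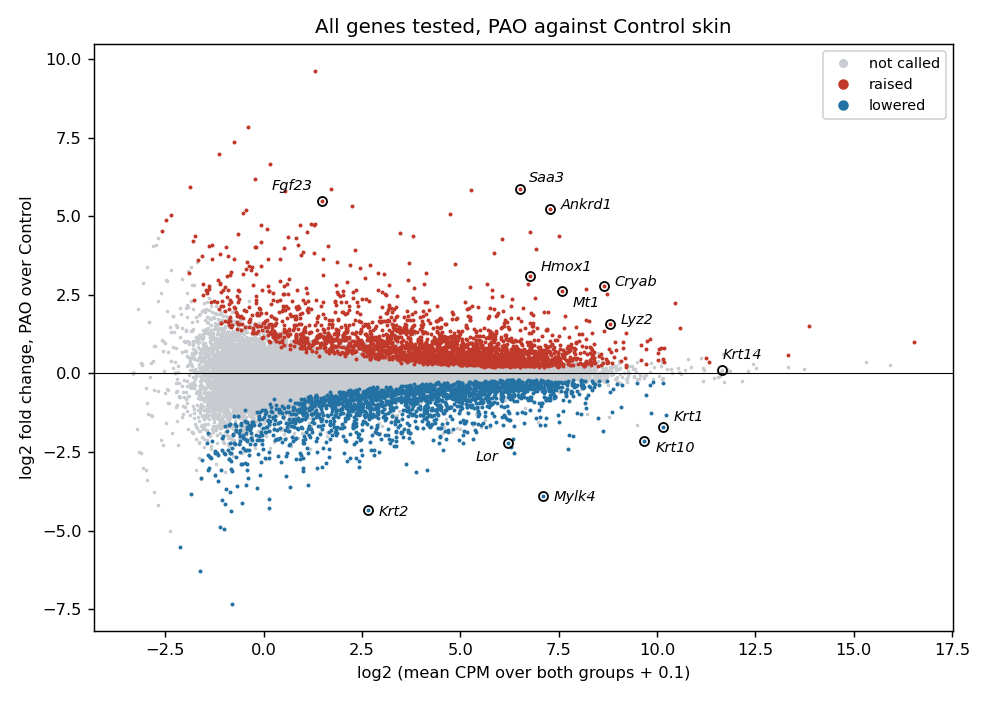
Log2 fold change of PAO over Control (vertical axis) against the mean level of both groups (horizontal axis, log2 of CPM + 0.1) for the 22529 genes tested, with raised genes in red, lowered genes in blue and genes not called in grey. Saa3 and Ankrd1 stand more than 5 log2 units above 0, Krt2 and Mylk4 more than 3 units below, and the abundant Krt14 lies near 0 and was not called.

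The 15 largest rises included myeloid, acute-phase and muscle stress genes. Saa3, an acute-phase serum amyloid, had 274, 78.2 and 182 CPM in PAO libraries, against 2.68, 3.25 and 3.18 CPM in Control libraries (log2 fold change 5.86 ± 0.43, adjusted p = 4.01e-07). Ankrd1, an ankyrin repeat protein induced in stressed muscle, had 365, 234 and 311 CPM in PAO and 12.3, 3.90 and 8.08 CPM in Control libraries, a log2 fold change of 5.24 ± 0.28. Slfn4, an interferon-inducible gene of the Schlafen family, had 84.0, 17.8 and 53.1 CPM in PAO and 1.61, 1.58 and 1.43 CPM in Control libraries (5.08 ± 0.49). The largest changes each way were picked among genes whose groups did not overlap, so that separation followed from the choice. List members named below for their small p were picked in a way that also favours separated groups. PAO 2 was the lowest PAO library for Saa3, Ankrd1 and Slfn4.

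Others among the 15 largest were low in Control skin. Chil3, a chitinase-like protein of macrophages, had 12.6, 3.01 and 11.4 CPM in PAO and 0, 0.232 and 0.357 CPM in Control libraries, with a log2 fold change of 5.32 and of 6.13 without Control 3. Retnlg, a resistin-like product of neutrophils, had 9.28, 3.72 and 5.77 CPM in PAO and 0.214, 0.139 and 0 CPM in Control libraries, and its log2 fold change of 5.88 was 6.61 without Control 1 and 5.12 without Control 3. Fgf23, a phosphate-regulating hormone made mainly by bone, had 7.34, 1.28 and 7.24 CPM in PAO and 0.161, 0.139 and 0.0649 CPM in Control libraries (5.49 ± 0.74, adjusted p = 9.65e-05). Trem1, a receptor that amplifies myeloid activation, rose by 4.06 ± 0.62, and Cd300lf, an inhibitory receptor of myeloid cells, by 3.92 ± 0.50, or 4.70 without Control 3. Rpsa-ps10, a processed pseudogene of a ribosomal protein gene, had 135, 1.60 and 89.4 CPM in PAO and 1.44, 1.39 and 1.20 CPM in Control libraries. PAO 2 lay at the Control level there, the log2 fold change was 5.82 and 5.09 without PAO 1, and since reads of near-identical copies may be split this gene is uncertain.

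The 15 largest falls included epidermal, muscle and hair genes. Krt2, the keratin of the uppermost living epidermis, had 0.556, 0.192 and 0.911 CPM in PAO libraries, against 14.9, 4.23 and 16.2 CPM in Control libraries (log2 fold change -4.35 ± 0.69). Mylk4, a kinase of muscle, had 16.3, 17.7 and 17.8 CPM in PAO and 184, 365 and 218 CPM in Control libraries (-3.89 ± 0.38, adjusted p = 6.71e-06). Retnla, a resistin-like gene of type 2 inflammation, had 1.28, 0.962 and 1.72 CPM in PAO and 9.74, 6.97 and 9.11 CPM in Control libraries (-2.68 ± 0.42), which is opposite to its relative Retnlg. Serpina12, the adipokine vaspin, had 2.06, 2.63 and 2.08 CPM in PAO and 14.8, 8.88 and 14.5 CPM in Control libraries (-2.50 ± 0.40). The muscle growth inhibitor Mstn and the water channel Aqp4 of fast muscle fibres changed by -2.52 and -3.13. Ddit4l, an inhibitor of mTOR signalling, changed by -2.44, or -1.84 without Control 2. Of the 15, 7 were hair keratin-associated proteins of the Krtap1, Krtap3 and Krtap4 families, whose near-identical copies make single members uncertain. Without Control 1 the calls of Krtap4-1, Krtap4-7 and Krtap4-8 ended, at log2 fold changes of -1.79, -2.12 and -1.79, and without PAO 1 Krtap4-7 and Krtap4-9 were at -3.66 and -3.59.

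Thiol defence genes rose in several arms. Of 14 genes of the thioredoxin system and peroxiredoxins, which reduce protein disulfides and peroxides, 7 were raised and none lowered, with a median of 0.49. Srxn1, which repairs overoxidised peroxiredoxins, had 171, 85.0 and 139.9 CPM in PAO libraries, against 20.4, 29.6 and 26.3 CPM in Control libraries (2.38 ± 0.20, adjusted p = 1.88e-06). Txnrd1, the cytosolic thioredoxin reductase and a known arsenical target, had 285, 194 and 277 CPM in PAO and 103, 114 and 117 CPM in Control libraries (1.18 ± 0.12, adjusted p = 1.08e-05). Its substrate Txn1 rose by 0.80 ± 0.13 and the peroxidase Prdx6 by 0.96 ± 0.13. For all of these genes the lowest PAO library, PAO 2 each time, stood above the highest Control library.

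Glutathione genes moved unevenly. Of 20 tested, 8 were raised and none lowered, with a median of 0.23 that was 0.03 under scaling by total counts. Slc7a11, the cystine importer, had 109, 52.8 and 84.8 CPM in PAO and 20.9, 25.0 and 23.2 CPM in Control libraries (1.83 ± 0.27). The 2 subunits of glutamate-cysteine ligase, the first enzyme of glutathione synthesis, gave unlike values. Gclm, the modifier subunit, had 103, 64.2 and 92.6 CPM in PAO and 32.2, 35.5 and 33.3 CPM in Control libraries (1.36 ± 0.14, adjusted p = 1.4e-05). Gclc, the catalytic subunit, had 76.7, 60.1 and 68.5 CPM in PAO and 68.3, 51.1 and 60.1 CPM in Control libraries, groups that overlapped (0.19 ± 0.16, adjusted p = 0.43). The difference between the subunits was not tested. Gsr, which regenerates glutathione, rose by 0.92 ± 0.13, and the transferase Gstp1 by 0.70 ± 0.11. Leaving out PAO 1 brought 1 glutathione gene under the threshold as lowered.

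Of 17 NRF2-driven quinone, haem and NADPH enzymes, 10 were raised and 1 lowered, with a median of 0.42. Hmox1, the inducible haem oxygenase, had 279, 101 and 208 CPM in PAO libraries, against 23.5, 20.1 and 25.0 CPM in Control libraries (3.10 ± 0.28, adjusted p = 2.98e-06). The widest spread lay within the PAO group, where PAO 1 had more than 2-fold the level of PAO 2. The ferritin chains Fth1 and Ftl1, which store the iron that haem oxygenase releases, rose by 1.27 ± 0.16 and 1.25 ± 0.13, with counts that their pseudogenes may share. Fth1 reached 838 ± 109.6 CPM in PAO and 347 ± 58.3 CPM in Control libraries (SD, n = 3 each). The aldo-keto reductase Akr1b8 rose by 1.46 ± 0.17 and the quinone reductase Nqo1 by 1.32 ± 0.18. The lowered member was G6pdx, the first enzyme of the pentose phosphate path, at -0.30 with an adjusted p of 0.0316, and that call ended without PAO 2, Control 1 or Control 3 (adjusted p 0.0988 to 0.118).

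Metallothioneins and zinc transporters went both ways. Of 11 metallothioneins and zinc transporters, 5 were raised and 3 lowered, with 3 raised without PAO 3 or Control 1, 1 lowered without Control 1 or Control 3, and none lowered with mitochondrial ribosomal RNA in the model. Mt1, the main inducible metallothionein, had 353, 311 and 326 CPM in PAO libraries, against 67.9, 44.8 and 49.2 CPM in Control libraries (2.61 ± 0.21, adjusted p = 9.82e-07). Its partner Mt2 had 2.45, 2.44 and 1.21 CPM in PAO and 0.749, 0.372 and 0.422 CPM in Control libraries (2.00 ± 0.44), and Mt3, a metallothionein best known from brain, had 2.45, 2.31 and 2.48 CPM in PAO and 1.12, 1.21 and 1.20 CPM in Control libraries (1.03 ± 0.30). Mt4, the form of differentiating squamous epithelium, went the other way with 1.61, 1.22 and 1.77 CPM in PAO and 8.08, 4.55 and 7.85 CPM in Control libraries (-2.14 ± 0.67, adjusted p = 0.0326). The Mt3 call ended without PAO 1, PAO 3, Control 1 or Control 3 (adjusted p 0.0652 to 0.0698), and the Mt4 call ended without any 1 of the libraries other than Control 2 (adjusted p 0.082 to 0.0899). Slc39a14, a zinc importer of the acute-phase response, had 199, 118 and 179.6 CPM in PAO and 67.6, 47.2 and 60.0 CPM in Control libraries (1.51 ± 0.17), and the zinc exporter Slc30a2 rose by 1.01 ± 0.26, a call that ended without PAO 3 or Control 1 (adjusted p 0.052 to 0.0655). The zinc importer Slc39a8 and the zinc exporter Slc30a1 changed by -0.62 ± 0.13 and -0.56 ± 0.15, the second not called without Control 1 or Control 3 (adjusted p 0.0553 to 0.0599).

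Genes that move or methylate arsenic were called at about the share of all genes, 20.4%. Of 13 tested, 3 were raised and none lowered, with a median of 0.10 that was -0.10 under total counts, and 5 were raised without Control 2 while 1 was lowered without PAO 2. The raised members were channels and a sugar carrier known to carry arsenite or its methylated forms. Aqp9, a channel for glycerol and arsenite, had 15.3, 12.3 and 15.0 CPM in PAO and 6.31, 6.78 and 6.97 CPM in Control libraries (1.08 ± 0.15). Aqp3, the glycerol channel of keratinocytes, had 196, 130.3 and 172 CPM in PAO and 104, 82.0 and 92.4 CPM in Control libraries (0.84 ± 0.18), and the glucose transporter Slc2a1 rose by 0.74 ± 0.12. As3mt, which methylates inorganic arsenic, had 7.50, 6.28 and 6.83 CPM in PAO and 4.23, 6.65 and 4.80 CPM in Control libraries, and the groups overlapped (0.40 ± 0.18, adjusted p = 0.144). Abcc1, an exporter of glutathione conjugates, had 226, 249 and 232 CPM in PAO and 245, 264 and 251 CPM in Control libraries (-0.11 ± 0.07, adjusted p = 0.318).

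Small heat shock proteins and much of the HSP70 system were raised. Of 18 genes of the HSP70, HSP40 and HSP110 classes 11 were raised and none lowered, with a median of 0.48, and all 7 small heat shock proteins were raised, with a median of 1.50. Cryab, a small heat shock protein abundant in muscle, had 899.6, 482 and 712 CPM in PAO libraries, against 102, 98.6 and 103 CPM in Control libraries (2.79 ± 0.19, adjusted p = 2.53e-07). Hspb7, a small heat shock protein of heart and skeletal muscle, had 811, 627 and 721 CPM in PAO and 126, 127 and 123 CPM in Control libraries (2.52 ± 0.14), and Hspb1, expressed more widely, rose by 1.71 ± 0.16. PAO libraries stood above all Control libraries for each of the 3, with no PAO library under 2-fold the highest Control library.

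Bag3, a co-chaperone that hands HSP70 clients to autophagy, had 199, 135 and 166 CPM in PAO and 68.2, 67.2 and 60.1 CPM in Control libraries (1.35 ± 0.13). Hsph1, an HSP110 nucleotide exchange factor, had 115, 75.7 and 104 CPM in PAO and 36.6, 58.6 and 42.4 CPM in Control libraries (1.09 ± 0.17, adjusted p = 0.000278). The stress-inducible Hspa1a had 47.3, 18.0 and 35.2 CPM in PAO and 15.0, 14.8 and 14.0 CPM in Control libraries (1.20 ± 0.25), and its near-identical copy Hspa1b had 162, 91.7 and 145 CPM in PAO and 74.3, 87.1 and 82.5 CPM in Control libraries (0.71 ± 0.16). PAO 2 lay close to the Control range for both copies, whose counts cannot be fully separated. The constitutive Hspa8 rose by 0.68 ± 0.11 and the HSP40 member Dnajb4 by 0.93 ± 0.12. Dnajb1, a classical HSP40 target of heat shock, had 54.2, 51.7 and 57.0 CPM in PAO and 51.4, 53.3 and 56.7 CPM in Control libraries, which overlapped (0.01 ± 0.07, adjusted p = 0.912). The mRNA of the heat shock factor Hsf1 had 49.6, 60.5 and 52.3 CPM in PAO and 56.0, 49.4 and 50.2 CPM in Control libraries (0.06 ± 0.09, adjusted p = 0.675).

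Most chaperonin, mitochondrial chaperone and proteasome genes were raised too. Of 15 chaperonin and mitochondrial chaperone genes 11 were raised and none lowered (median 0.40), or 6 without PAO 1, 6 without PAO 3 and 5 without Control 1. The mitochondrial HSP70 Hspa9 had 298, 251 and 286 CPM in PAO and 133, 205 and 163 CPM in Control libraries (0.74 ± 0.14), the mitochondrial chaperonin Hspd1 rose by 0.65 ± 0.15, and the cytosolic chaperonin subunits Cct3 and Cct8 rose by 0.62 ± 0.12 and 0.64 ± 0.14. Control 2 was the highest Control library for all 4 genes. Of 31 proteasome subunit genes 26 were raised and none lowered, with a median of 0.47. Psmd11, a lid subunit of the regulatory particle, had 194, 173 and 192 CPM in PAO and 99.9, 102 and 95.7 CPM in Control libraries (0.91 ± 0.08, adjusted p = 1.97e-06), and the core subunit Psma4 rose by 0.65 ± 0.10. Both changes were under 2-fold, and the groups did not overlap for either gene.

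Of 17 ubiquitin and selective autophagy genes 11 were raised and 1 lowered. Sqstm1, the p62 receptor that carries ubiquitinated protein into autophagosomes, had 387, 324 and 366 CPM in PAO and 104, 153 and 128 CPM in Control libraries (1.49 ± 0.13, adjusted p = 2.58e-06). Zfand2a, a proteasome-associated protein first described as arsenite-inducible, had 52.3, 39.4 and 49.8 CPM in PAO and 17.5, 20.4 and 18.1 CPM in Control libraries (1.34 ± 0.11, adjusted p = 1.6e-06). The autophagy genes Gabarapl1 and Wipi1, which act in autophagosome formation, rose by 0.89 ± 0.12 and 0.81 ± 0.11. Calcoco1, an autophagy receptor, was the lowered member at -0.37, a call that ended without PAO 1, PAO 3, Control 1 or Control 3 (adjusted p 0.0614 to 0.121).

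**Figure D2:**
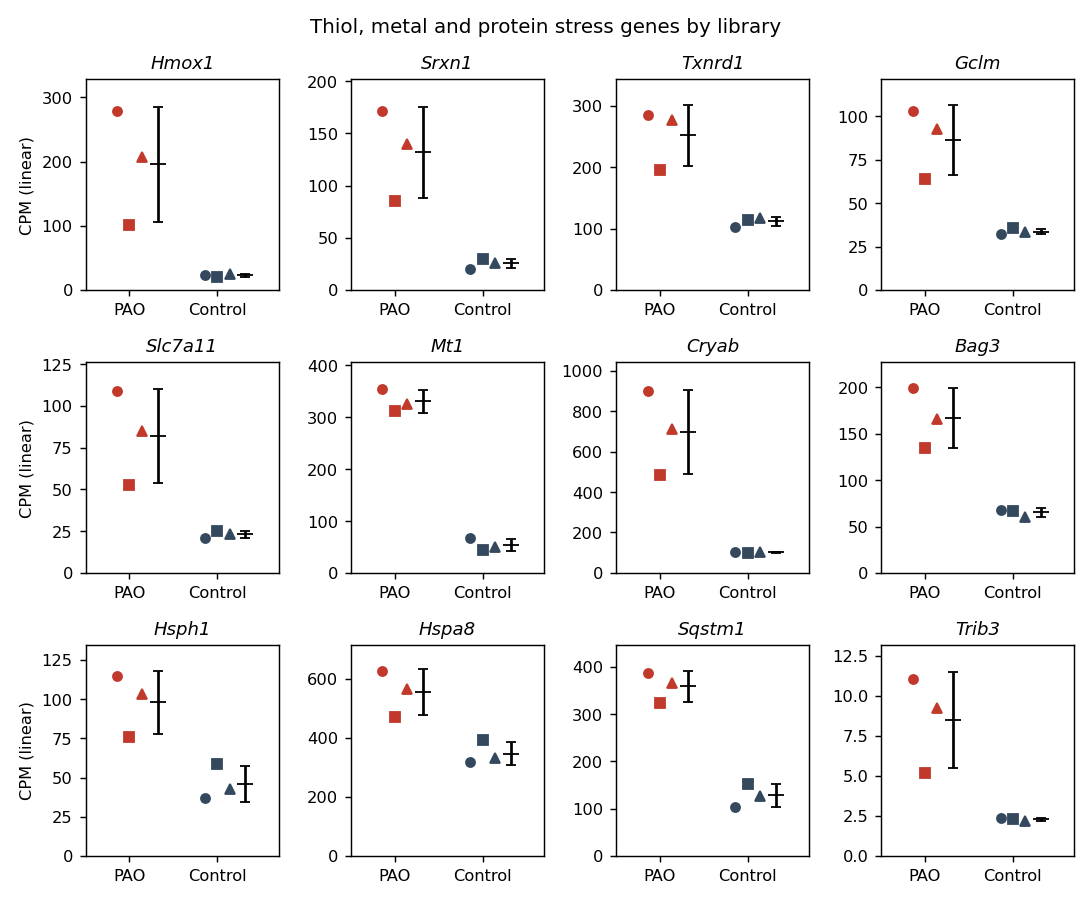
CPM (linear vertical axes that start at 0) of 12 stress genes in PAO and Control libraries, where circles, squares and triangles are replicates 1, 2 and 3 and the bar beside them is the mean with the SD of 3 libraries. In each panel the lowest PAO library, PAO 2, lies above the highest Control library, and for Hmox1 the PAO libraries range from 101 to 279 CPM.

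Targets of the integrated stress response were raised in part. Of 26 ATF4 targets 12 were raised and 1 lowered, with a median of 0.37, and 7 were raised without PAO 1, 7 without Control 1 and 6 without PAO 3. Trib3, a pseudokinase that damps ATF4 signalling, had 11.1, 5.19 and 9.21 CPM in PAO libraries, against 2.35, 2.32 and 2.17 CPM in Control libraries (1.90 ± 0.24, adjusted p = 6.6e-05). Eif4ebp1, a repressor of cap-dependent translation, had 74.2, 65.7 and 72.5 CPM in PAO and 27.7, 25.3 and 25.4 CPM in Control libraries (1.44 ± 0.14). Atf4 itself rose by 0.70 ± 0.09 and the mitochondrial folate enzyme Mthfd2 by 0.89 ± 0.15. Some widely used readouts of the pathway did not pass the test. Ddit3, the death-linked factor CHOP, had 8.50, 9.04 and 8.86 CPM in PAO and 9.20, 8.69 and 9.24 CPM in Control libraries (-0.04 ± 0.14, adjusted p = 0.87). Chac1, a glutathione-degrading enzyme, had 17.2, 20.1 and 16.8 CPM in PAO and 20.3, 12.5 and 16.0 CPM in Control libraries (0.15 ± 0.18, adjusted p = 0.605). Asns, asparagine synthetase, and Atf3, a stress-induced factor, had log2 fold changes of 0.39 and 0.58, and both calls ended without PAO 3, Control 1 or Control 3, that of Asns also without PAO 1 and that of Atf3 also without PAO 2 (adjusted p 0.0722 to 0.162 for Asns and 0.0638 to 0.0936 for Atf3). The lowered member was Nupr1, a small stress-induced chromatin protein, at -0.46, not called without PAO 2, PAO 3, Control 1 or Control 3 (adjusted p 0.076 to 0.128). Ppp1r15a, which ends the translation block, rose by 0.60 ± 0.14, a call that ended without PAO 1 (adjusted p 0.0538).

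Of 18 chaperones of the endoplasmic reticulum 13 were raised and none lowered (median 0.40), or 7 without PAO 1, 8 without PAO 3 and 7 without Control 3. Hspa5, the luminal HSP70, had 384, 242 and 344 CPM in PAO and 141, 196 and 158 CPM in Control libraries (0.97 ± 0.15, adjusted p = 0.000333). Its cofactor Dnajb9 rose by 0.85 ± 0.10 and the disulfide isomerase Pdia6 by 0.70 ± 0.11. The groups did not overlap for these 3 genes.

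Promoters were read to place these genes beside the motifs of their known factors. Sequences of 300 bases, 250 before and 50 after the start site, came from RefSeq (GRCm38.p6, a build other than that of the counts), and 13445 of the genes tested had at least 1. The 4 promoters that follow belong to raised genes of the metallothionein, thioredoxin, HSP70 and ATF4 target lists, and capitals mark the motif matches. Only windows with a match were printed. Bag3 and Hspa1a rose more than Hsph1, and Gdf15 more than Trib3, and none of them was among the genes found with a match. The metal response element was searched as TGCACNC or TGCGCNC, the antioxidant response element as TGACNNNGC, the heat shock element as GAA, TTC and GAA, or TTC, GAA and TTC, each spaced by any 2 bases, and the C/EBP-ATF response element as TGATGNAA, each on both strands.
Mt1 (chr8:94178839-94179138, plus strand): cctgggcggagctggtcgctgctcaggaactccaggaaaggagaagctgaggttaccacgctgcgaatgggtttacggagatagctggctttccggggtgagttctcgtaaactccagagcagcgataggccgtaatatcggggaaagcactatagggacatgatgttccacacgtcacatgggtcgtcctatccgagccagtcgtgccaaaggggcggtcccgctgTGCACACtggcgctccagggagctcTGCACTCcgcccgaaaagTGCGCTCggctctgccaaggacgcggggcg
Srxn1 (chr2:152105274-152105573, plus strand): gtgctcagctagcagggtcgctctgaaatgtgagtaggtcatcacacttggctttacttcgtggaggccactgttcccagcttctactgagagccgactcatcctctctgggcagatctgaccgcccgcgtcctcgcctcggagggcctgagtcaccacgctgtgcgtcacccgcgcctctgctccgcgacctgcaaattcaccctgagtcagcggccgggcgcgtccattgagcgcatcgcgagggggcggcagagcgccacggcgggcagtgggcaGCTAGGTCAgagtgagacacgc
Hsph1 (chr5:149636287-149636586, minus strand): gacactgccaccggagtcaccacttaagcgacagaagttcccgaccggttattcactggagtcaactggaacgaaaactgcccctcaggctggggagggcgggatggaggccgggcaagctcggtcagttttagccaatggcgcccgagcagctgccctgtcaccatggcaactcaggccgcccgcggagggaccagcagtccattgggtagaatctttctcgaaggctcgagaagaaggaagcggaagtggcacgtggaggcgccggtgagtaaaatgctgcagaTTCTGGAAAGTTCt
Trib3 (chr2:152344011-152344310, minus strand): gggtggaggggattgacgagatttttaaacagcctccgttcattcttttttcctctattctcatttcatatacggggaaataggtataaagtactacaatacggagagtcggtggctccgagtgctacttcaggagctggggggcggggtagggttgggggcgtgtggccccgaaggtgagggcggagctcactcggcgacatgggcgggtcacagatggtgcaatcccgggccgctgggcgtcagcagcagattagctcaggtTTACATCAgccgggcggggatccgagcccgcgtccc

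The Mt1 window held 3 metal response elements, the first starting 23 bases before the start site. The matches in Srxn1, Hsph1 and Trib3 started 29, 37 and 15 bases after it. A metal response element was found in 8 of 9 metallothionein and zinc transporter genes with a promoter and in 28.2% of all 27025 genes with one. The 8 included genes with opposite changes, Mt1 at 2.61 and Mt4 at -2.14. The antioxidant response element was found in 3 of 13 thioredoxin system genes, 3 of 17 glutathione genes and 5 of 15 NRF2-driven enzymes, and in 14.0% of all genes. Srxn1, Txnrd1 and Gclm each held 1, as did the lowered G6pdx. The heat shock element was found in 2 of 16 genes of the HSP70 list, in 0 of 5 small heat shock proteins and in 2 of 13 chaperonin genes, and in 0.662% of all genes. Of the list genes with a match Hsph1 and Hspd1 were raised, while Dnajb6 and Hspe1 were not called (adjusted p = 0.213 and 0.0511). The C/EBP-ATF element was found in 7 of 24 ATF4 targets and in 4.51% of all genes, Trib3, Asns and the lowered Nupr1 among them. Fgf21, Pycr1 and Vldlr held 1 too and were not called. The ATF4 and NRF2 lists were made of known targets of those factors, and the metallothionein and chaperone lists hold known targets of MTF1 and HSF1. None of these shares of matches therefore bears on PAO. A match describes the letters of the window and not the binding of a factor.

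Energy genes were set beside the thiol targets because lipoic acid enzymes are classical targets of trivalent arsenicals. Of 18 genes of the lipoamide dehydrogenase complexes 5 were raised and none lowered (median 0.20), and the raised count was 1 without Control 3, 2 without PAO 1, PAO 3 or Control 1, 3 without PAO 2 and 8 without Control 2, with 1 lowered without Control 1. Gcsh, the lipoate carrier of the glycine cleavage system, had 19.7, 20.2 and 20.1 CPM in PAO and 9.58, 15.8 and 11.9 CPM in Control libraries (0.69 ± 0.15). Dlat and Dld, the lipoate-bearing core and the dehydrogenase of the pyruvate dehydrogenase complex, were not called. Dlat had 76.9, 77.1 and 74.5 CPM in PAO and 52.0, 77.6 and 62.0 CPM in Control libraries (0.25 ± 0.14, adjusted p = 0.228), and Dld had 84.6, 80.2 and 81.3 CPM in PAO and 47.7, 76.8 and 60.1 CPM in Control libraries (0.41 ± 0.15, adjusted p = 0.0625). Pdk4, a kinase that inactivates the complex, had 204, 408 and 302 CPM in PAO and 167, 188 and 162 CPM in Control libraries (0.82 ± 0.22), a call that ended without PAO 2 or Control 3 (adjusted p 0.0549 to 0.0757).

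Of 25 HIF targets and glycolysis genes 12 were raised and none lowered (median 0.49), or 7 without PAO 1, Control 1 or Control 3. Pfkfb4, which raises the activator of glycolysis fructose 2,6-bisphosphate, had 49.9, 37.6 and 47.4 CPM in PAO and 17.0, 21.5 and 18.1 CPM in Control libraries (1.25 ± 0.18). Pkm, pyruvate kinase, rose by 0.78 ± 0.15, and Adm, the vasodilator peptide adrenomedullin, had 9.73, 3.46 and 7.29 CPM in PAO and 1.71, 0.604 and 1.07 CPM in Control libraries (2.62 ± 0.45). Nuclear genes of oxidative phosphorylation had a median of 0.27 with 2 of 30 raised, and 18 were raised without Control 2, 1 without Control 3 and 0 without PAO 1, PAO 3 or Control 1. None of 10 mitochondrially encoded mRNAs and none of 31 cytosolic ribosomal protein genes was called, and of these last 2 were raised without Control 2 and 1 lowered without PAO 2. Under total counts 5 of the ribosomal protein genes were lowered. Of 20 ribosome biogenesis genes 7 were raised (median 0.26), or 4 without PAO 3 or Control 3, led by Rrp12, a factor of subunit export, at 0.80 ± 0.10.

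Most neutrophil chemokine and receptor genes were raised. Of 10 CXC chemokine and receptor genes 8 were raised and none lowered, with a median of 2.42. Cxcl5, a ligand of the neutrophil receptor CXCR2, had 31.5, 9.56 and 21.5 CPM in PAO libraries, against 0.963, 1.21 and 0.714 CPM in Control libraries (4.47 ± 0.49, adjusted p = 1.77e-05). Cxcl1, another CXCR2 ligand, had 14.4, 4.62 and 12.2 CPM in PAO and 1.07, 1.25 and 1.43 CPM in Control libraries (3.04 ± 0.33). Csf3, the granulocyte growth factor, had 7.50, 1.41 and 4.91 CPM in PAO and 0.161, 0.139 and 0.195 CPM in Control libraries (4.74 ± 0.56). Cxcl2, also a CXCR2 ligand, had 4.56, 3.46 and 3.95 CPM in PAO and 1.18, 1.81 and 1.78 CPM in Control libraries (1.31 ± 0.41, adjusted p = 0.0323), and its call ended without PAO 1, PAO 3, Control 1 or Control 3 (adjusted p 0.0716 to 0.113). For these genes PAO 2 held the lowest PAO value and still stood above every Control library.

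Several monocyte chemokines rose and some lymphocyte chemokines fell. Of 23 CC and lymphocyte chemokine genes 11 were raised and 2 lowered, with 6 raised without PAO 1, 7 without PAO 3 and 7 without Control 3. Ccl6, a ligand of CCR1, had 103, 79.8 and 85.8 CPM in PAO and 13.3, 11.2 and 12.7 CPM in Control libraries (2.85 ± 0.28), and Ccl9, of the same kind, rose by 2.07 ± 0.25. Ccl2, which recruits monocytes through CCR2, had 8.11, 3.01 and 7.59 CPM in PAO and 1.66, 0.929 and 1.36 CPM in Control libraries (2.26 ± 0.33). Ccl27a, the keratinocyte chemokine that draws T cells to skin, had 3.61, 4.23 and 2.83 CPM in PAO and 9.52, 7.62 and 8.14 CPM in Control libraries (-1.25 ± 0.23). Ccl22, a dendritic cell chemokine for T cells, had 1.72, 0.898 and 1.57 CPM in PAO and 3.91, 3.62 and 4.15 CPM in Control libraries (-1.46 ± 0.36). The lowest Control library stood above the highest PAO library for both.

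The interleukin-1 family went both ways. Of 14 members 3 were raised and 6 lowered, with a median of -0.73. Il1b, the form of activated myeloid cells, had 15.3, 11.4 and 12.0 CPM in PAO libraries, against 4.01, 5.07 and 4.35 CPM in Control libraries (1.52 ± 0.32, adjusted p = 0.00299). Il33, a nuclear alarmin, had 37.9, 24.0 and 31.9 CPM in PAO and 12.7, 14.1 and 12.2 CPM in Control libraries (1.27 ± 0.24). Il1a, the form stored in keratinocytes, had 1.22, 1.35 and 1.42 CPM in PAO and 4.23, 4.14 and 4.22 CPM in Control libraries (-1.65 ± 0.28, adjusted p = 0.00056). Il1f5, the epidermal antagonist also named Il36rn, had 14.1, 18.1 and 12.9 CPM in PAO and 56.9, 38.5 and 62.7 CPM in Control libraries (-1.82 ± 0.30), and Il18, another keratinocyte cytokine, changed by -1.34 ± 0.23. Keratinocytes express these last 3, and their suprabasal markers were lower in PAO libraries too (given below), the part of which here was not tested.

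Most genes of the IL-6 and IL-20 family list were raised. Of 17 genes 11 were raised and 2 lowered, with a median of 0.67. Il6 had 6.72, 0.705 and 5.97 CPM in PAO libraries, against 0, 0.279 and 0.195 CPM in Control libraries (4.71 ± 0.74, adjusted p = 0.000333), and PAO 2 lay far below the other PAO libraries. Il24, an IL-20 family cytokine of wounded epidermis, had 5.67, 3.14 and 4.25 CPM in PAO and 0.268, 0.139 and 0.454 CPM in Control libraries, with a log2 fold change of 3.82 and of 4.41 without Control 3. Socs3, the STAT3 feedback inhibitor, had 104, 97.7 and 105 CPM in PAO and 33.2, 37.1 and 37.9 CPM in Control libraries (1.50 ± 0.16, adjusted p = 1.67e-05), and the PAO libraries were close to each other there. Stat3 rose by 0.69 ± 0.08, while Il20rb, a receptor chain for IL-20 family cytokines, changed by -0.87 ± 0.16. Il4ra, the receptor chain for IL-4 and IL-13, had 204, 133 and 179.7 CPM in PAO and 53.9, 55.4 and 60.2 CPM in Control libraries (1.61 ± 0.19).

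Tnf did not pass the test, and some NF-kB feedback genes rose. Tnf, a cytokine that acts through NF-kB, had 2.83, 4.55 and 3.64 CPM in PAO and 4.12, 3.49 and 4.41 CPM in Control libraries, groups that overlapped (-0.13 ± 0.24, adjusted p = 0.745). Of 19 NF-kB feedback genes 7 were raised and 1 lowered, with a median of 0.19 that was -0.01 under total counts. Bcl3, a nuclear partner of NF-kB p50 and p52, had 33.8, 34.9 and 30.5 CPM in PAO and 15.3, 14.1 and 14.9 CPM in Control libraries (1.16 ± 0.14). The precursor gene Nfkb2 rose by 0.54 ± 0.10 and the inhibitor Nfkbie by 0.67 ± 0.13. Rel, the c-Rel subunit, was the lowered member at -0.34, a call that ended without PAO 1, PAO 3, Control 1 or Control 2 (adjusted p 0.0525 to 0.0831), and 2 members were lowered without PAO 2.

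Most markers of myeloid cells were raised. Of 22 monocyte and macrophage markers 18 were raised and none lowered (median 1.60), and their summed share of gene counts was 0.173 ± 0.0105% in PAO and 0.0813 ± 0.00614% in Control libraries (SD, n = 3 each, ranges 0.163 to 0.184% and 0.0756 to 0.0878%). In whole skin, more cells of a type and more RNA per cell cannot be told apart. Lyz2, a lysozyme of macrophages and granulocytes, had 657, 676 and 670.3 CPM in PAO libraries, against 188, 269 and 224 CPM in Control libraries (1.56 ± 0.17). Gpnmb, a glycoprotein of macrophages and melanocytes, had 583, 752 and 621 CPM in PAO and 284, 385 and 311 CPM in Control libraries (1.00 ± 0.11). Ccr1, a chemokine receptor of monocytes and neutrophils, rose by 2.80 ± 0.31. For Lyz2 and Gpnmb the lowest PAO library stood above the highest Control library, and Control 2 was the highest of its group.

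Neutrophil markers had 11 of 16 raised and 1 lowered (median 1.93), or 2 lowered without Control 2. Their summed share was 0.0193 ± 0.00532% in PAO and 0.0107 ± 0.00137% in Control libraries. Mmp8, neutrophil collagenase, had 11.9, 5.45 and 7.34 CPM in PAO and 0.482, 0.929 and 0.811 CPM in Control libraries (3.45 ± 0.46), and Lrg1, an acute-phase and neutrophil glycoprotein, rose by 2.26 ± 0.28. Il1r2, a decoy receptor for interleukin-1, was the lowered member with 7.84, 13.3 and 9.31 CPM in PAO and 16.6, 22.9 and 18.8 CPM in Control libraries (-0.94 ± 0.20). Of 16 acute-phase and antimicrobial genes 9 were raised and 3 lowered. Lcn2, an iron-siderophore binding lipocalin, had 141, 72.0 and 109 CPM in PAO and 8.61, 7.02 and 7.14 CPM in Control libraries (3.83 ± 0.31, adjusted p = 1.02e-06), and the protease inhibitor Serpina3n had 335, 359 and 338 CPM in PAO and 19.4, 13.3 and 17.3 CPM in Control libraries (4.37 ± 0.24). Defb6, a beta-defensin, was lowered with 22.8, 23.3 and 20.8 CPM in PAO and 72.9, 61.2 and 72.5 CPM in Control libraries (-1.63 ± 0.14, adjusted p = 2.22e-06).

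Of 22 innate immune sensors 16 were raised and 1 lowered, with a median of 1.39. Msr1, a macrophage scavenger receptor, had 70.9, 67.1 and 61.0 CPM in PAO libraries, against 8.35, 11.8 and 9.18 CPM in Control libraries (2.76 ± 0.20, adjusted p = 3.34e-07). Tlr4, the endotoxin receptor, had 28.4, 24.3 and 25.4 CPM in PAO and 7.28, 6.69 and 6.07 CPM in Control libraries (1.97 ± 0.20), and Tlr13, a sensor of bacterial ribosomal RNA, rose by 1.44 ± 0.18. Nod1, an intracellular peptidoglycan sensor, was the lowered member with 48.3, 50.5 and 50.7 CPM in PAO and 69.2, 62.2 and 65.5 CPM in Control libraries (-0.40 ± 0.08). Of 17 complement genes 12 were raised and 1 lowered (median 1.06). C3ar1, the receptor for C3a, had 44.8, 43.5 and 39.4 CPM in PAO and 12.5, 12.0 and 13.8 CPM in Control libraries (1.73 ± 0.20), the recognition subunit gene C1qb rose by 1.84 ± 0.25, and Cd55, which shields cells from complement, changed by -0.63 ± 0.15.

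Of 28 interferon-stimulated genes 26 were raised and none lowered, with a median of 1.47, or 17 without PAO 1. Oasl2, an oligoadenylate synthetase relative, had 36.0, 16.2 and 30.2 CPM in PAO and 8.51, 6.46 and 7.56 CPM in Control libraries (1.88 ± 0.23). Oasl1, another of the family, had 15.6, 4.17 and 9.41 CPM in PAO and 0.749, 1.12 and 0.941 CPM in Control libraries (3.37 ± 0.39), and Slfn2, a Schlafen gene of leukocytes, rose by 1.55 ± 0.16. PAO 2 was the lowest PAO library for all 3 and stayed above the Control libraries. The interferon-stimulated response element was searched as 2 runs of GAAA with any 2 bases between them, on both strands. It was found in 12 of 21 members with a promoter and in 3.99% of all genes. The list was made of known interferon targets, so that share does not bear on PAO. The promoter of Isg15, a ubiquitin-like modifier, held 3 overlapping matches and is printed for them. The gene was picked after its values were seen and had 5.28, 0.770 and 4.50 CPM in PAO and 0.910, 0.558 and 1.07 CPM in Control libraries, which overlapped at PAO 2.
Isg15 (chr4:156200769-156201068, minus strand, GRCm38.p6): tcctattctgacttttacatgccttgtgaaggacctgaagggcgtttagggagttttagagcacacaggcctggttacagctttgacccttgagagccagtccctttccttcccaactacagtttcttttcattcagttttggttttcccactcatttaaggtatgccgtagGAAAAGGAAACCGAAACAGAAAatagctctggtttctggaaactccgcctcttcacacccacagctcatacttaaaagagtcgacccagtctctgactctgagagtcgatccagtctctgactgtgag

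Prostaglandin and leukotriene genes had 6 of 20 raised and 3 lowered, or 3 raised without PAO 1. Ptgir, the prostacyclin receptor, had 9.39, 7.82 and 9.16 CPM in PAO and 3.42, 5.11 and 3.67 CPM in Control libraries (1.11 ± 0.16), and Pla2g7, the hydrolase of platelet-activating factor, rose by 0.94 ± 0.15. Ptgs1, the constitutive cyclooxygenase, had 38.2, 49.7 and 43.2 CPM in PAO and 68.3, 58.0 and 67.6 CPM in Control libraries (-0.57 ± 0.14). Of 20 inflammasome, gasdermin and necroptosis genes 7 were raised and 1 lowered, or 2 lowered without PAO 1, PAO 2 or Control 2. Nlrp3, the sensor of the inflammasome, had 10.8, 6.16 and 7.44 CPM in PAO and 2.03, 1.86 and 2.34 CPM in Control libraries (1.96 ± 0.32), and the necroptosis genes Mlkl and Ripk3 rose by 1.04 ± 0.16 and 1.05 ± 0.21. Gsdma, the gasdermin of differentiated epidermis, was the lowered member with 30.8, 31.9 and 27.6 CPM in PAO and 73.6, 46.5 and 70.8 CPM in Control libraries (-1.08 ± 0.16). Of 20 apoptosis regulators 3 were raised and none lowered, among them the survival gene Mcl1 (0.67 ± 0.11).

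Some T cell and NK cell markers and all Skint genes tested were lowered, while few Langerhans and dendritic cell markers were called. Of 14 T cell and NK cell markers 6 were lowered and none raised, or 3 without Control 1 or Control 3, and their summed share of counts overlapped, at 0.00564 to 0.00882% in PAO and 0.00713 to 0.0125% in Control libraries. Cd3e, a chain of the T cell receptor complex, had 1.72, 2.57 and 2.63 CPM in PAO libraries, against 8.29, 4.69 and 5.74 CPM in Control libraries (-1.43 ± 0.29, adjusted p = 0.00244). Of 15 Langerhans and dendritic cell markers 1 was lowered and 2, Mfge8 and Itgax, were raised (median -0.098). The raised count was 1 without PAO 2, PAO 3, Control 1 or Control 3, and the lowered count was 2 without PAO 1. With mitochondrial ribosomal RNA in the model none of the 15 was called. The lowered member was Cd207, the langerin of Langerhans cells, which had 1.28, 0.770 and 0.860 CPM in PAO and 4.01, 5.44 and 6.00 CPM in Control libraries (-2.40 ± 0.41). Of 11 Skint genes, which keratinocytes express and of which Skint1 selects the γδ T cells of mouse epidermis, all were lowered, with a median of -1.40. Skint8 had 4.00, 5.64 and 4.35 CPM in PAO and 13.3, 10.7 and 12.9 CPM in Control libraries (-1.40 ± 0.18), and Skint9 had 3.39, 4.81 and 3.95 CPM in PAO and 19.2, 10.3 and 19.5 CPM in Control libraries (-2.02 ± 0.28). Reads of these similar genes may be shared among them. Of 14 mast cell and B cell markers 1 was raised, Hdc, the histamine-forming enzyme that other myeloid cells also make, with 23.1, 6.22 and 18.4 CPM in PAO and 4.65, 3.67 and 5.55 CPM in Control libraries (1.78 ± 0.40).

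**Figure D3:**
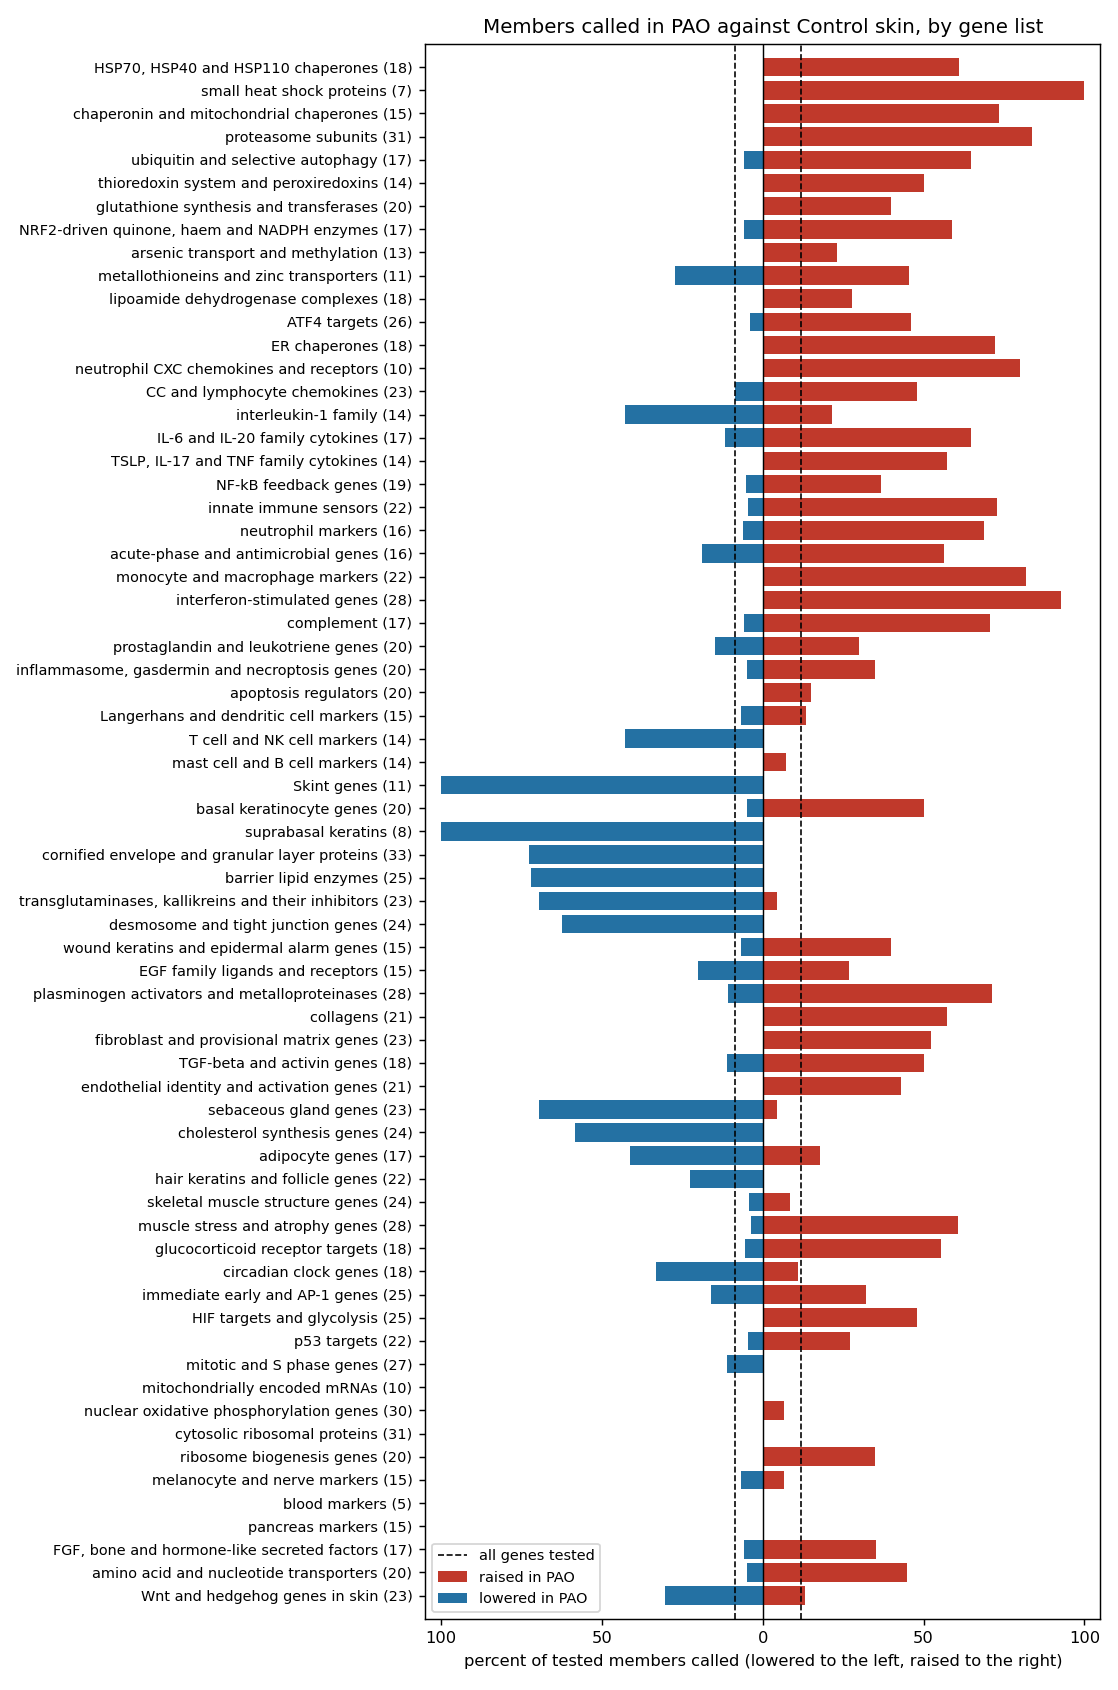
Percent of tested members called raised (red, to the right) and lowered (blue, to the left) in PAO against Control skin for 67 gene lists, with the number tested in brackets and dashed lines at the shares over all genes tested, 11.9% raised and 8.58% lowered. Chaperone, proteasome, macrophage and interferon lists extend to the right, and suprabasal keratin, Skint, barrier lipid and sebaceous lists extend to the left.

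Most genes of the differentiated epidermis were lowered. All 8 suprabasal keratins were lowered (median -1.72), or 7 with mitochondrial ribosomal RNA in the model, and their summed share of gene counts was 0.151 ± 0.00520% in PAO and 0.499 ± 0.0867% in Control libraries (SD, n = 3 each). Krt1 had 621, 462 and 533 CPM in PAO libraries, against 1894, 1394 and 1942 CPM in Control libraries (-1.69 ± 0.23, adjusted p = 8.98e-05). Krt10, its partner, had 332, 289 and 287 CPM in PAO and 1623, 906 and 1478 CPM in Control libraries (-2.14 ± 0.26, adjusted p = 4.41e-05), and Krt77, a keratin of the upper layers and sweat ducts, changed by -2.40 ± 0.30. The PAO libraries were close together and the Control libraries apart, with Control 2 lowest.

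Of 33 cornified envelope and granular layer genes 24 were lowered and none raised (median -1.54), or 14 lowered with mitochondrial ribosomal RNA in the model. Flg, the filaggrin precursor of the granular layer, had 96.6, 85.9 and 84.7 CPM in PAO and 385, 265 and 393 CPM in Control libraries (-1.96 ± 0.27, adjusted p = 0.000118). Lor, loricrin of the cornified envelope, had 25.4, 26.0 and 27.8 CPM in PAO and 146, 68.6 and 149 CPM in Control libraries (-2.20 ± 0.30). Ivl, involucrin, an early envelope protein, had 12.5, 13.7 and 12.1 CPM in PAO and 25.7, 20.4 and 25.5 CPM in Control libraries (-0.91 ± 0.18). The highest PAO library was below the lowest Control library for these 3 genes. The 9 members that did not pass had values up to 2.88.

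Most genes for barrier lipid enzymes and for enzymes that assemble and shed the cornified layer were lowered. Of 25 barrier lipid enzymes 18 were lowered and none raised (median -1.0), or 1 raised without PAO 2 and 8 lowered with mitochondrial ribosomal RNA in the model. Abca12, the ceramide transporter of lamellar granules, had 105, 136 and 114 CPM in PAO and 303, 231 and 284 CPM in Control libraries (-1.21 ± 0.16), and Alox12b, the lipoxygenase that starts the corneocyte lipid envelope, had 4.28, 4.81 and 4.10 CPM in PAO and 18.8, 10.6 and 18.2 CPM in Control libraries (-1.85 ± 0.26). Sdr9c7, a dehydrogenase of the same path, changed by -1.89 ± 0.27. Of 23 transglutaminases, kallikreins and inhibitors 16 were lowered and 1 raised (median -1.18), or 8 lowered with mitochondrial ribosomal RNA in the model. Klk5, a protease of corneocyte shedding, had 4.39, 5.26 and 5.11 CPM in PAO and 20.2, 14.1 and 19.1 CPM in Control libraries (-1.86 ± 0.24), Casp14, a filaggrin-processing caspase, changed by -2.08 ± 0.29, and the envelope cross-linker Tgm3 by -1.23 ± 0.19. The raised member was Tgm2, a tissue transglutaminase of fibroblasts, endothelium and macrophages, with 319, 311 and 321 CPM in PAO and 73.4, 104 and 90.5 CPM in Control libraries (1.83 ± 0.16).

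Most junction genes were lowered, and the basal keratins did not pass the test. Of 24 desmosome and tight junction genes 15 were lowered and none raised (median -0.40), or 9 without Control 1 and 4 with mitochondrial ribosomal RNA in the model. Cldn1, the tight junction claudin of epidermis, had 113, 96.1 and 102 CPM in PAO and 187, 165 and 174 CPM in Control libraries (-0.76 ± 0.10), and the suprabasal desmosome genes Dsg1a and Dsc1 changed by -0.95 ± 0.15 and -1.46 ± 0.24. Krt5 had 2795, 2906 and 2971 CPM in PAO and 2751, 3489 and 3107 CPM in Control libraries (-0.11 ± 0.10, adjusted p = 0.512), and Krt14 had 3315, 3414 and 3351 CPM in PAO and 2733, 3494 and 3131 CPM in Control libraries (0.11 ± 0.12, adjusted p = 0.581). Of 20 basal keratinocyte genes 10 were raised and 1 lowered (median 0.28), or 6 raised without PAO 1. Itgb1, the beta-1 integrin, had 378, 296 and 365 CPM in PAO and 148, 189.9 and 166 CPM in Control libraries (1.05 ± 0.12), and Itgb4, the hemidesmosome integrin, had 532, 582 and 580.1 CPM in PAO and 371, 418 and 381 CPM in Control libraries (0.53 ± 0.08). Col17a1, the hemidesmosome collagen, was the lowered member at -0.31 (adjusted p = 0.0463), a call that ended without PAO 1, PAO 3 or any 1 Control library (adjusted p 0.0529 to 0.182).

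Several wound keratins rose. Of 15 wound keratin and epidermal alarm genes 6 were raised and 1 lowered, the lowered count being 2 without Control 2 and 0 without PAO 1 or PAO 3. Krt6b had 224, 129 and 203 CPM in PAO libraries, against 24.8, 24.9 and 27.0 CPM in Control libraries (2.86 ± 0.28, adjusted p = 6.71e-06). Krt16, which pairs with the Krt6 keratins in activated keratinocytes, had 517, 410.1 and 492 CPM in PAO and 146, 153 and 148 CPM in Control libraries (1.67 ± 0.21), and Krt6a rose by 1.34 ± 0.16. Itga5, the fibronectin receptor chain of migrating keratinocytes, rose by 1.24 ± 0.14. Of 15 EGF family genes 4 were raised and 3 lowered. The ligand genes Nrg1, Areg and Hbegf rose by 1.15 ± 0.16, 1.07 ± 0.23 and 0.69 ± 0.12, while Btc, betacellulin, had 2.72, 2.57 and 2.78 CPM in PAO and 6.05, 7.57 and 7.33 CPM in Control libraries (-1.37 ± 0.26) and the receptor gene Erbb3 changed by -0.36 ± 0.09.

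**Figure D4:**
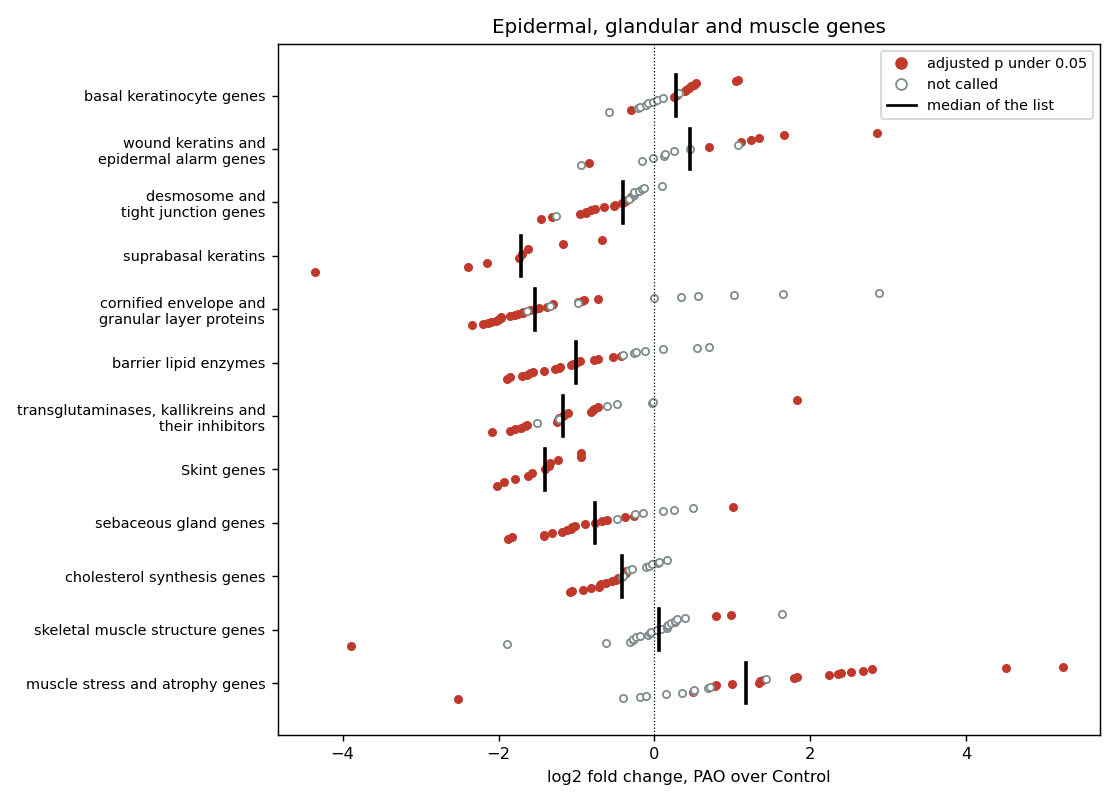
Log2 fold change of PAO over Control for each tested member (points, spread vertically only for legibility) of 12 lists of epidermal, glandular and muscle genes, filled where the adjusted p was under 0.05 and open where not, with the median of each list as a bar. All suprabasal keratins and Skint genes lie left of 0. Muscle structure genes have a median of 0.05, with 2 of 24 raised and 1 lowered. Basal keratinocyte genes have a median of 0.28, with 10 of 20 raised and 1 lowered.

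Most matrix protease genes and part of the collagens were raised. Of 28 plasminogen activator and metalloproteinase genes 20 were raised and 3 lowered (median 1.07), the lowered count being 1 without Control 1 and 0 without PAO 3. Mmp3, stromelysin, had 178, 66.4 and 136 CPM in PAO and 5.35, 6.97 and 7.07 CPM in Control libraries (4.29 ± 0.36). Adam8, a sheddase of leukocytes, rose by 1.78 ± 0.18. Of 21 collagen genes 12 were raised and none lowered (median 0.55), or 7 without PAO 1. Col4a1, a basement membrane chain, had 405, 143 and 321 CPM in PAO and 112, 89.6 and 117 CPM in Control libraries (1.45 ± 0.25). Its partner Col4a2 rose by 1.43 ± 0.21, and Serpinh1, the collagen chaperone, rose by 1.05 ± 0.18.

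Of 23 fibroblast and provisional matrix genes 12 were raised and none lowered, or 6 without PAO 1. Pdgfra, the growth factor receptor of fibroblasts, had 154, 54.1 and 116 CPM in PAO and 31.1, 20.7 and 29.5 CPM in Control libraries (2.00 ± 0.29), and Tnfaip6, which loads hyaluronan of inflamed matrix, had 9.61, 3.85 and 6.88 CPM in PAO and 0.910, 0.836 and 1.72 CPM in Control libraries (2.49 ± 0.36). Of 18 TGF-beta and activin genes 9 were raised and 2 lowered, with 5 raised without PAO 1, and 1 lowered without PAO 3 or Control 3. The matricellular gene Ccn1 rose by 0.98 ± 0.14 and the receptor gene Tgfbr1 by 0.74 ± 0.11, while Bmp4, a bone morphogenetic protein, changed by -0.97 ± 0.21. Of 21 endothelial genes 9 were raised and none lowered (median 0.76), or 5 without PAO 1 and 14 without PAO 2. Icam1, the leukocyte adhesion molecule, had 35.5, 31.3 and 37.1 CPM in PAO and 19.3, 18.8 and 18.4 CPM in Control libraries (0.88 ± 0.11), and Lyve1, of lymphatic endothelium and some macrophages, had 12.7, 5.45 and 9.97 CPM in PAO and 1.66, 1.39 and 2.37 CPM in Control libraries (2.35 ± 0.35).

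Most sebaceous gland and cholesterol synthesis genes fell. Of 23 sebaceous gland genes 16 were lowered and 1 raised (median -0.77), and no member was raised without PAO 1, PAO 3, Control 1 or Control 3. Scd1, the desaturase of sebocytes, had 741, 645 and 673 CPM in PAO libraries, against 1562, 1962 and 1612 CPM in Control libraries (-1.32 ± 0.23). Elovl6, a fatty acid elongase, had 172, 180.4 and 168 CPM in PAO and 448, 828 and 562 CPM in Control libraries (-1.82 ± 0.29), and Mc5r, the melanocortin receptor of sebaceous glands, had 8.45, 9.81 and 9.21 CPM in PAO and 20.9, 29.1 and 23.4 CPM in Control libraries (-1.42 ± 0.24). Of 24 cholesterol synthesis genes 14 were lowered and none raised (median -0.41), or 9 without PAO 3. Hsd17b7, which acts late in the path, had 46.1, 41.9 and 44.6 CPM in PAO and 88.8, 93.4 and 95.1 CPM in Control libraries (-1.06 ± 0.12, adjusted p = 2.86e-05). With mitochondrial ribosomal RNA in the model the lowered counts were 3 sebaceous and 3 cholesterol genes.

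Fat, hair and Wnt genes were lowered in part. Of 17 adipocyte genes 7 were lowered and 3 raised, with 3 lowered without Control 1 and 4 without PAO 2, PAO 3 or Control 3. Adipoq, adiponectin, had 3.95, 1.22 and 3.64 CPM in PAO and 12.0, 6.04 and 8.47 CPM in Control libraries (-1.56 ± 0.36), while the lipase gene Pnpla2 rose by 0.76 ± 0.12. Of 22 hair keratins and follicle genes 5 were lowered and none raised (median -1.52), or 2 without Control 1 and 3 without PAO 2, PAO 3 or Control 3, and 0 with mitochondrial ribosomal RNA in the model. With no filter on low counts 20 were lowered and 1 raised. Their summed share was 0.0602 to 0.146% in PAO and 0.167 to 0.421% in Control libraries. Of 23 Wnt and hedgehog genes 7 were lowered and 3 raised, the raised count being 1 without any 1 library other than PAO 2. Wnt3, a ligand made by epidermis, had 10.8, 20.8 and 14.2 CPM in PAO and 34.9, 32.5 and 35.0 CPM in Control libraries (-1.16 ± 0.18). Wnt7b, of the same kind, changed by -1.04 ± 0.20, and Wnt16 had 3.28, 2.50 and 4.20 CPM in PAO and 1.12, 0.883 and 0.616 CPM in Control libraries (1.96 ± 0.36).

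Transcription factor programmes of time and stress also differed. Of 18 circadian clock genes 6 were lowered and 2 raised, or 1 raised without PAO 1. The repressor Nr1d1 had 54.4, 56.4 and 53.4 CPM in PAO and 103, 86.0 and 89.7 CPM in Control libraries (-0.76 ± 0.11), and the output factors Dbp and Hlf changed by -0.90 ± 0.17 and -1.07 ± 0.22. The labels give no clock time of collection. Of 25 immediate early and AP-1 genes 8 were raised and 4 lowered, or 5 raised without PAO 1, Control 1 or Control 3. Fos had 68.6, 77.8 and 81.1 CPM in PAO and 32.3, 38.2 and 32.3 CPM in Control libraries (1.15 ± 0.14), and Mafg, a small Maf partner of NRF2, had 141, 143 and 142 CPM in PAO and 82.7, 94.4 and 85.1 CPM in Control libraries (0.70 ± 0.07). Egr3 and Klf4, the second a factor of epidermal barrier formation, changed by -0.85 ± 0.11 and -0.84 ± 0.11. Of 18 glucocorticoid receptor targets 10 were raised and 1 lowered, or none lowered without PAO 1, PAO 3 or Control 3, with Cebpd at 1.08 ± 0.14 and Fkbp5 at 0.62 ± 0.11.

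Most muscle stress genes rose, and few muscle structure genes passed the test. Of 24 skeletal muscle structure genes 2 were raised and 1 lowered (median 0.05, which was -0.14 under total counts, below 0 under upper-quartile scaling and without Control 1), and 10 were raised without Control 2. Of 28 muscle stress and atrophy genes 17 were raised and 1 lowered (median 1.17). Ankrd2, a stretch-induced relative of Ankrd1, had 259.9, 151 and 219.6 CPM in PAO libraries, against 9.47, 9.62 and 8.69 CPM in Control libraries (4.51 ± 0.27, adjusted p = 4.15e-08). Mustn1, a small nuclear protein of regenerating muscle and bone, had 228, 237 and 217 CPM in PAO and 15.5, 14.1 and 14.5 CPM in Control libraries (3.95 ± 0.15, adjusted p = 3.95e-10), and Rrad, a small GTPase of muscle, had 25.3, 27.0 and 26.1 CPM in PAO and 1.44, 1.16 and 1.20 CPM in Control libraries (4.37 ± 0.29). Mstn, myostatin, was the lowered stress gene with 21.8, 28.9 and 22.5 CPM in PAO and 98.2, 208 and 113 CPM in Control libraries (-2.52 ± 0.29). Of the structural genes, Actn2 and Des, of the Z disc and of intermediate filaments, rose by 0.98 ± 0.12 and 0.79 ± 0.14. Ankrd2, Mustn1, Rrad and Mstn were picked among genes whose groups did not overlap, and Actn2 and Des did not overlap either. Muscle took a like share of counts in both groups.

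Of 22 p53 targets 6 were raised and 1 lowered, with a median of 0.13 that was -0.07 under total counts, and no member was lowered without PAO 2, PAO 3, Control 2 or Control 3. Eda2r, of the TNF receptor family, had 44.7, 48.4 and 45.7 CPM in PAO and 11.7, 14.9 and 14.3 CPM in Control libraries (1.76 ± 0.13, adjusted p = 3.34e-07). Gadd45a, a growth arrest gene, had 24.1, 27.1 and 21.4 CPM in PAO and 6.96, 7.16 and 6.84 CPM in Control libraries (1.79 ± 0.19). Cdkn1a, the p21 inhibitor of the cell cycle, had 102, 86.5 and 95.5 CPM in PAO and 87.5, 79.5 and 82.3 CPM in Control libraries, which overlapped (0.19 ± 0.11, adjusted p = 0.257). Of 27 mitotic and S phase genes 3 were lowered and none raised (median -0.14), or 1 lowered without PAO 2, PAO 3, Control 1 or Control 2, with 1 raised without Control 2. Under total counts 11 of these genes were lowered. Mki67, the proliferation antigen, had 272, 214 and 232 CPM in PAO and 338, 314 and 315 CPM in Control libraries (-0.43 ± 0.11), a call that ended without PAO 3 (adjusted p 0.0531).

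PAO skin was last set against CEES skin, another chemical injury at 24 h, to see which of these changes differed between the agents. The agents were given at different doses, and their library codes were 4 to 6 for PAO and 13 to 15 for CEES. Agent, dose and library code therefore cannot be told apart. Of 22529 genes 4255 (18.9%) differed, 2033 higher in PAO (9.02%) and 2222 lower (9.86%), or 2825 in all without PAO 3. Of 18 HSP70-class genes 10 were higher in PAO than in CEES skin and none lower. Hspa1a had 47.3, 18.0 and 35.2 CPM in PAO, 13.2, 12.0 and 15.6 CPM in CEES and 15.0, 14.8 and 14.0 CPM in Control libraries, with a PAO minus CEES log2 difference of 1.30 ± 0.25. Bag3 had 199, 135 and 166 CPM in PAO, 73.9, 81.7 and 79.4 CPM in CEES and 68.2, 67.2 and 60.1 CPM in Control libraries (1.09 ± 0.13, adjusted p = 3.46e-05). Hmox1 had 279, 101 and 208 CPM in PAO, 68.2, 95.1 and 73.2 CPM in CEES and 23.5, 20.1 and 25.0 CPM in Control libraries (1.31 ± 0.26). That Hmox1 difference was not called with replicate number added to a fit of PAO and CEES libraries alone (adjusted p = 0.0725). Chac1 had 7.56, 5.91 and 9.10 CPM in CEES libraries and was higher in PAO by 1.26 ± 0.19, although PAO and Control did not differ there at the threshold.

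Several cytokine and keratin genes were lower in PAO than in CEES skin. Il1b had 78.4, 114 and 84.4 CPM in CEES libraries, so PAO was lower than CEES by a log2 difference of -2.84 ± 0.30. Cxcl2 had 23.6, 46.8 and 22.4 CPM and Il6 24.6, 26.4 and 22.3 CPM in CEES libraries, with differences of -2.95 ± 0.36 and -2.43 ± 0.47. Krt10 had 332, 289 and 287 CPM in PAO, 1034, 489 and 1090.2 CPM in CEES and 1623, 906 and 1478 CPM in Control libraries (-1.53 ± 0.26), and Lor differed by -1.54 ± 0.29. Of 28 interferon-stimulated genes 15 were higher and 3 lower in PAO than in CEES skin, and of 27 mitotic and S phase genes 18 were lower and none higher. Pancreas markers took 0.00127 to 0.00181% of counts in CEES libraries and 0.00348 to 0.0186% in those given CEES and SNX-5422. All 15 pancreas markers were higher in PAO than in CEES libraries, by a median of 6.69, and muscle structure genes by a median of 1.09. The part of these markers in the other differences was not tested. With mitochondrial ribosomal RNA in the model 1382 genes differed, and the differences of Il6, Krt10 and Lor were no longer called.

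**Figure D5:**
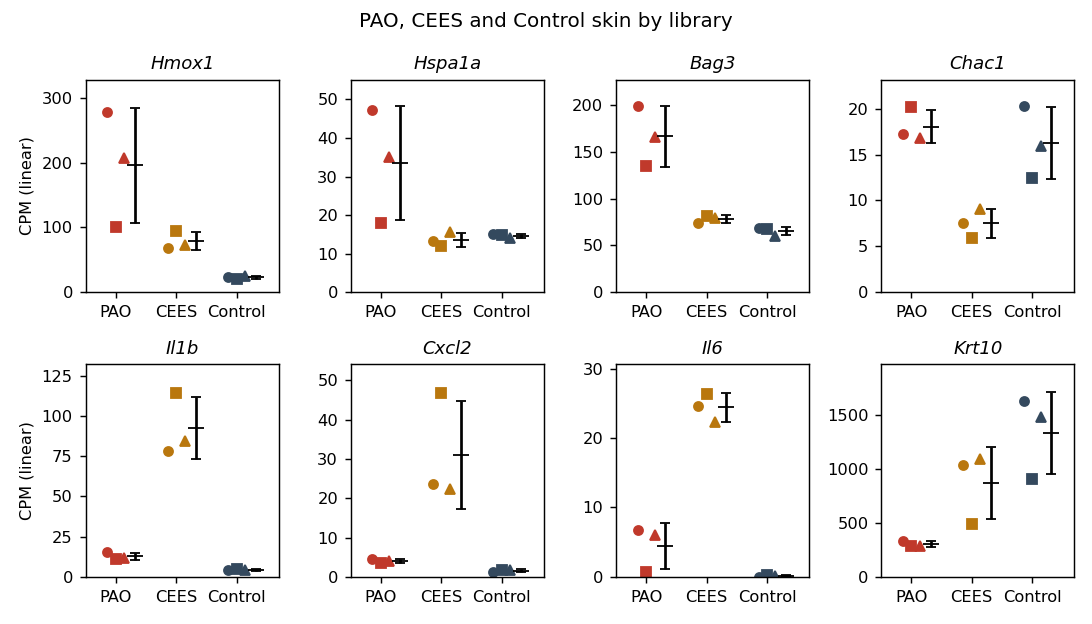
CPM (linear vertical axes that start at 0) of 8 genes in PAO, CEES and Control libraries, where circles, squares and triangles are replicates 1, 2 and 3 and the bar beside them is the mean with the SD of 3 libraries. The Hspa1a, Bag3 and Hmox1 values are highest in PAO libraries, the Il1b, Cxcl2 and Il6 values in CEES libraries, the Chac1 values lowest in CEES libraries, and the Krt10 values in Control libraries except for Control 2, which lies within the CEES range.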

How the data were processed

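Total RNA of whole dorsal skin was depleted of ribosomal RNA and sequenced, per the labels' protocols, in 15 libraries of 5 groups of 3. The authors deposited raw counts per gene for each library. Per the submitters' processing notes the tools were bcl2fastq 2.18.0.12, Trim Galore 0.6.7, STAR 2.7.10a and HTSeq 2.0.2 with genome GRCm39, while the sources name neither a strand setting nor an annotation release. Without the strand setting, reads of overlapping antisense genes cannot be told apart. The 5 summary entries of the counter were removed from the 53700 genes. Reads on no feature were 38.6 to 39.3% of all table entries in PAO and 40.7 to 46.9% in Control libraries. Symbols were joined by identifier from GENCODE M21, a release on another build, for 52093 genes.

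All 15 libraries, the 6 given SNX-5422 included, entered 1 fit of edgeR 4.0.16 (R 4.3.3) with a mean per group, TMM scaling, filterByExpr and the quasi-likelihood test with 10 residual degrees of freedom, and adjusted p-values (Benjamini-Hochberg) cover the 22529 genes tested. The contrasts were PAO minus Control and PAO minus CEES. Alternatives were other scalings, filters, DESeq2 1.42.0, fits of the 2 groups alone, mitochondrial ribosomal RNA as a covariate or removed, and leaving out each library. The smallest two-sided exact permutation p of 3 against 3 libraries is 0.1, so shares of counts are given without a test. Libraries of 1 group differed by more than counting noise (chi-square per degree of freedom 10.1 to 50.2), so none was merged.

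The compared groups and the 67 gene lists were chosen with earlier results of these data known. Named genes were the 15 largest changes each way among called genes of at least 5 CPM with no overlap, up to 4 members per list and direction with the smallest p, and a fixed set of stress, cytokine and epidermal genes, shortened for space. Some genes the rule names are not reported here.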

Additional observations from a re-analysis of the deposited data

Results flagged for a closer look

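Differences between the agents were tested in the same fit, as PAO minus CEES, and 4255 genes passed. Dose and library code cannot be told apart from agent there. Among the genes named in the report, PAO libraries were higher by 1.31 for Hmox1, 1.30 for Hspa1a, 1.09 for Bag3 and 1.26 for Chac1 on the log2 scale. They were lower for the others, with differences of -2.84 for Il1b, -2.95 for Cxcl2, -2.43 for Il6, -1.53 for Krt10 and -1.54 for Lor. No group was tested for a single outlying library, since each held 3.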

How the results depend on the processing

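Of 211 genes named as passing between PAO and Control, 182 kept their sign and their side of the threshold under all 16 alternatives. The count of 4607 genes was 3919 in a fit of PAO and Control libraries alone and 3600 with a replicate block added to that fit. PAO minus CEES, at 4255 genes, gave 4138 in a fit of those groups alone and 2617 with the replicate block added. The block also ended the call of Hmox1 between PAO and CEES (adjusted p = 0.0725). The main fit used no pairing. Deviations of same-numbered PAO and Control libraries correlated by 0.0608, 0.103 and -0.00071, and those of unlike numbers by -0.0914 to 0.0508. With 3 libraries per group these values cannot show whether the libraries were paired. The PAO minus Control count ranged from 2953 to 4920 when 1 library was left out, and PAO minus CEES from 2825 to 4008. PAO minus CEES gave 7863 genes under total counts (796 higher and 7067 lower, against 2033 and 2222) and 1382 with the mitochondrial ribosomal share in the model, and the cause was not tested. With upper-quartile scaling the raised share between PAO and Control was 46.6% and with total counts 24.8%, against 58.0%. No gene was called with opposite signs by an alternative.

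Signs turned for 7 genes, none of them called. Under total counts Gclc was at -0.0090, Dnajb1 at -0.19, Hsf1 at -0.15, Chac1 at -0.065, Krt14 at -0.091 and Cdkn1a at -0.014. Under upper-quartile scaling Dnajb1 was at -0.056 and Hsf1 at -0.011, and Hsf1 was at -0.10 with mitochondrial ribosomal RNA in the model. Leaving out 1 library gave -0.032 to 0.054 for Dnajb1, -0.036 to 0.12 for Hsf1, -0.012 to 0.34 for Chac1 and -0.32 to 0.0090 for Tnf. Total counts also turned the medians of the inflammasome, AP-1, ribosomal protein and mitochondrial mRNA lists below 0. Of genes under 1 CPM 6.50% were called, and a part of depth in this was not tested.

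Counts of list members also moved under these settings. With mitochondrial ribosomal RNA in the model the raised counts were 2 for lipoamide dehydrogenase, 5 for TSLP, IL-17 and TNF family, 3 for prostaglandin, 3 for ribosome biogenesis and 14 for endothelial genes, and the lowered counts were 3 for the interleukin-1 family, 3 for T cell and NK cell markers, 2 for adipocyte genes, 1 for acute-phase genes and 0 for mitotic genes. Under total counts the raised counts were 12 for proteasome subunits, 4 for chaperonins and mitochondrial chaperones, 5 for ER chaperones, 5 for ATF4 targets, 5 for glutathione genes, 6 for NRF2-driven enzymes, 4 for basal keratinocyte genes, 7 for collagens and 5 for TGF-beta and activin genes. Lowered counts grew there and included 11 for mitotic, 19 for cholesterol synthesis, 9 for circadian clock, 5 for ribosomal protein, 4 for p53 target and 3 for lipoamide dehydrogenase genes.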

Other observations

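Further gene groups were counted in the same fit of PAO against Control. Of 14 TSLP, IL-17 and TNF family genes 8 were raised and none lowered. Tnfrsf12a, the receptor for the cytokine TWEAK, had 43.7, 23.0 and 36.0 CPM in PAO and 11.5, 18.6 and 15.6 CPM in Control libraries (1.17 ± 0.19), and Crlf2, a chain of the TSLP receptor, had 12.3, 13.3 and 11.4 CPM in PAO and 6.74, 5.53 and 6.55 CPM in Control libraries (0.97 ± 0.15). Of 17 secreted factors of the FGF, bone and hormone-like list 6 were raised and 1 lowered. Gdf15, a stress-induced hormone, had 3.39, 0.770 and 2.38 CPM in PAO and 0.375, 0.465 and 0.0649 CPM in Control libraries (2.93 ± 0.61), and Angptl4, an inhibitor of lipoprotein lipase, had 41.1, 33.9 and 38.9 CPM in PAO and 23.9, 12.4 and 24.6 CPM in Control libraries (0.90 ± 0.20). Of 20 amino acid, metal and nucleotide transporters 9 were raised and 1 lowered. Slc11a1, a metal transporter of macrophage phagosomes, had 39.9, 34.9 and 39.0 CPM in PAO and 14.0, 17.3 and 13.8 CPM in Control libraries (1.33 ± 0.20). PAO and Control libraries did not overlap for any of these 5 genes, which were picked for a small p, a choice that favours separated groups.

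None of 5 blood markers and none of 15 pancreas markers was called, with medians of 1.27 and -0.39. The pancreas median was 0.60 without Control 1, and the blood median ranged from 0 to 2.24 over the alternatives, with 2 blood markers raised without PAO 2 and 3 of 7 raised with no filter on low counts. Of 15 melanocyte and nerve markers 1 was raised and 1 lowered, the lowered one being S100b, a glial calcium-binding protein, with 1.33, 1.28 and 0.911 CPM in PAO and 3.21, 2.46 and 2.43 CPM in Control libraries (-1.20 ± 0.27). Without Control 2 there were 4 lowered and none raised.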
